A study of Arabidopsis thaliana with 30 samples.

Results

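RNA from sorted epidermis cells was compared with RNA from sorted lateral root cap cells of Arabidopsis thaliana roots, to find the genes that separate these neighbouring outer tissues. The comparison used 12 of the 30 libraries of a study of roots under high and low phosphate, chosen by their labels alone: all 6 labelled epidermis and all 6 labelled lateral root cap. Epidermis cells were collected by fluorescence-activated cell sorting from the line WER::GFP, in which the promoter of WER drives a green fluorescent protein, and lateral root cap cells from the line J3411. J lines are enhancer trap lines, whose reporter is switched on by the genomic surroundings of its insertion. Seedlings of both lines, labelled wild type, were kept 6 days at 22 °C with high phosphate (HPi) or low phosphate (LPi), and each sort had 3 libraries at each level. LPi was 5 µM phosphate by the treatment protocol, whereas the sample labels describe a medium without phosphate. Since a line was used for 1 sort alone, effects of line and of cell type cannot be told apart. Nothing says that replicates came from separate cultures, and the p-values reflect only how far these libraries spread, which may be technical.

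The epidermis and the lateral root cap arise from the same initial cells at the root tip, and the lateral root cap covers the young epidermis until its cells die or are shed. WER is a MYB transcription factor that sets the non-hair fate of epidermal cells, and its promoter is known to be active in young epidermis and also in the lateral root cap. SMB, BRN1 and BRN2 are NAC transcription factors of the root cap that control its maturation, its separation and, in the case of SMB, its programmed cell death. A sort on WER::GFP may therefore hold cells of both tissues, and the first question was how far the labels and the markers of the sorts went together.

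WER stood at 8.93 to 20.7 CPM (counts per 1e6 reads after TMM scaling) in the 6 epidermis libraries, with a median of 13.2, and at 0.975 to 3.79 CPM in the 6 lateral root cap libraries, with a median of 2.05. All epidermis libraries were above all lateral root cap libraries. Since the epidermis cells were sorted on the WER promoter, WER is no independent marker of what this sort holds. The difference was 2.74 log2 units, epidermis minus lateral root cap (SE 0.39, adjusted p = 7.13e-05, edgeR's quasi-likelihood test with Benjamini-Hochberg adjustment, as for every adjusted p in the text unless another tool is named). Beyond WER, the other epidermal regulators separated the sorts less. GL2, which carries out the non-hair fate, had medians of 24.6 and 16.4 CPM, and MYB23, a relative of WER, 15.6 and 25.8 CPM, each with overlapping groups and without passing the test.

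The defining genes of the root cap were not higher in the sort labelled lateral root cap. SMB ran from 11.5 to 29.2 CPM in the epidermis sort, with a median of 25.2, and from 4.92 to 14.9 CPM in the lateral root cap sort, with a median of 9.72. Its groups overlapped, and the difference of 1.202 log2 units (SE 0.34, adjusted p = 0.0260) was towards the epidermis. It did not pass without epidermis HPi replicate 1 (adjusted p = 0.0687), HPi replicate 2 (0.0611), LPi replicate 1 (0.0636), LPi replicate 2 (0.0529) or lateral root cap HPi replicate 1 (0.0589). BRN1 was also higher in the epidermis sort, by 0.56 (SE 0.17, adjusted p = 0.0347), a call that ended without epidermis HPi replicate 1 (0.0848), HPi replicate 2 (0.0514), LPi replicate 1 (0.0705) or lateral root cap HPi replicate 1 (0.0918). BRN2 had medians of 92.2 and 85.1 CPM and did not pass. FEZ, which acts in the root cap stem cells, stayed at or below 2.96 CPM in all 12 libraries.

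Over the list of 8 lateral root cap markers, 4 passed the test towards the epidermis (SMB, BRN1, CEL5 and AT1G65570) and 0 towards the lateral root cap, where 5.72% and 5.98% of all genes tested passed. Over summed pairs, with the HPi and LPi library of one number and sort added up, SMB and BRN1 did not pass (adjusted p = 0.112 and 0.222). All 8 markers of the list summed to 1290 to 2144 CPM in the epidermis libraries and 913 to 2420 CPM in the lateral root cap libraries, so that the sums overlapped. With all 30 libraries scaled together SMB had medians of 27.0 CPM in the epidermis sort and 9.88 CPM in the lateral root cap sort, against 0.329 in the sort labelled cortex, 0.111 in the pericycle and 0.442 in the stele. Both outer sorts thus carried SMB above the inner sorts, with more in the one labelled epidermis. By their medians BRN1, BRN2, BFN1, AT4G04460 and AT1G65570 of the list were also above the inner sorts in both. CEL5 was not, with 0.510 CPM in the lateral root cap against 4.88, 7.39 and 5.29 CPM in cortex, pericycle and stele. FEZ had a median of 0 CPM in the lateral root cap. The lateral root cap sort in turn carried some epidermal transcripts. RHD6, a root hair gene, had a median of 96.9 CPM there, against 3.19, 0.202 and 2.49 CPM in cortex, pericycle and stele. GL2 had 17.1 CPM in the lateral root cap and at most 0.566 CPM in an inner sort. CPC and AUX1, of the same marker list, were lower in the lateral root cap than in pericycle and stele. Which cells gave these transcripts was not tested. In bulk samples, fewer cells of a type and less RNA per cell cannot be told apart.

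**Figure D1:**
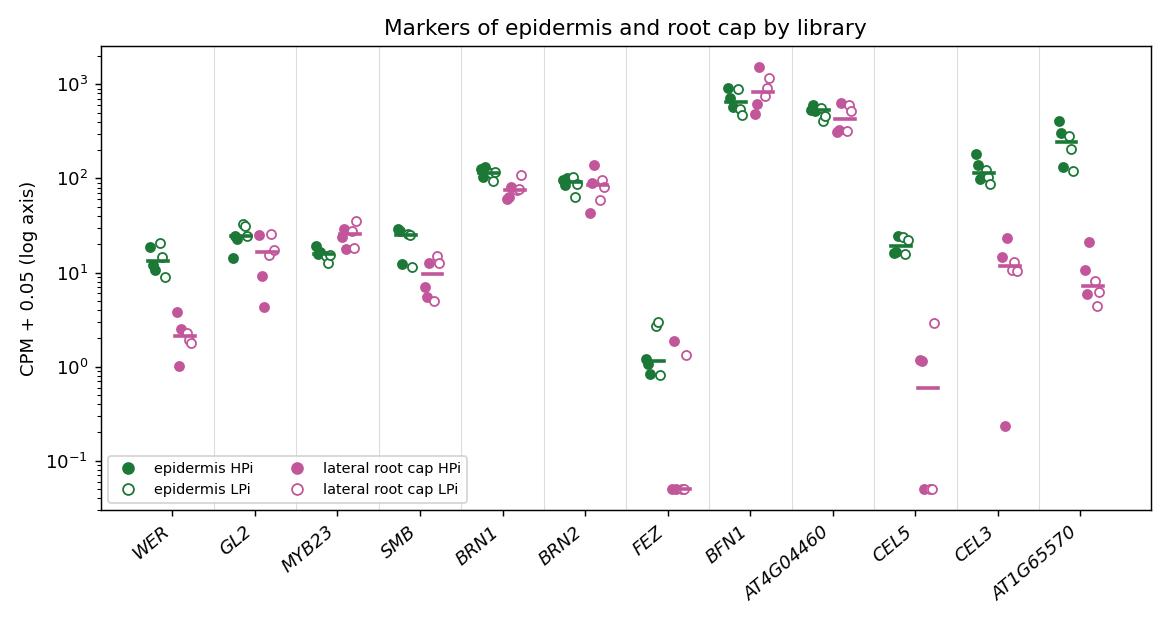
CPM + 0.05 on a log axis for 12 marker genes of epidermis and root cap, with 1 point per library (filled HPi, open LPi) and a bar at the median of each sort. WER, CEL5, CEL3 and AT1G65570 lie higher in all 6 epidermis libraries than in any lateral root cap library, while BRN2, BFN1 and AT4G04460 overlap.

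In units of 1e6 reads, the libraries held 4.43 to 40.3 in genes, and reads not assigned to a gene made up 6.44% to 12.5% of a library. The replicate 3 libraries of the epidermis, HPi and LPi, were almost the same. Their biological coefficient of variation was 0.0470, whereas the next closest pair of the sort had 0.377. They still differed beyond counting error (chi-square per gene 2.93) and were kept as separate libraries, so results were also computed without them. Both lay above the other 4 epidermis libraries in 20.2% of genes tested and below them in 16.1%. Computed over genes, which are no independent replicates, the mean correlation of an epidermis library with the rest of its sort was 0.900 to 0.934. That of a lateral root cap library was 0.791 to 0.840 with its own sort and 0.771 to 0.847 with the epidermis sort and 3 of these 6 libraries were nearer to their own sort. Pairs within the lateral root cap had a median correlation of 0.832 and pairs between the sorts of 0.821. Endodermis markers summed to 13.7 to 79.8 CPM in the epidermis and 27.9 to 208 CPM in the lateral root cap libraries, with 0 of 7 tested members called. Of markers of stele cells 1 of 6 was called (WOL, a cytokinin receptor, by 0.93 towards the epidermis, SE 0.19), and of quiescent centre and meristem markers 1 of 6 (PLT2). The columella, xylem, phloem, pericycle and cortex lists had no member called. The 4 photosynthetic markers were too low to test, at a sum of 16.2 CPM or less. The part of these cells in the results was not tested.

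Of 21517 genes tested, 2517 (11.7%) differed between the sorts, 1230 higher in the epidermis (5.72%) and 1287 higher in the lateral root cap (5.98%). All 6 epidermis libraries stood above all 6 lateral root cap libraries for 858 genes (3.99%) and below them for 888 (4.13%). Calls with a difference of at least 1 log2 unit numbered 875 and 770. The median difference over all genes tested was -0.07 after TMM scaling, and RLE scaling gave -0.02. Leaving out each library in turn kept 1409 of the calls in every case, 790 higher in the epidermis and 619 higher in the lateral root cap. Among calls higher in the epidermis 59 had no read in any lateral root cap library, while 1 call higher in the lateral root cap had no read in any epidermis library. Same-numbered HPi and LPi libraries of the epidermis deviated together, and 1000 genes were called when such pairs were summed, 494 higher in the epidermis (2.33%) and 506 higher in the lateral root cap (2.39%). The balance moved with the libraries: 48.9% of calls were higher in the epidermis, but 64.3% without a filter on low counts and 67.0% with all 30 libraries in the fit. It was 62.2% without lateral root cap HPi replicate 3 (843 calls higher in the lateral root cap), 62.8% without LPi replicate 1 (796) and 62.1% without LPi replicate 3 (773).

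**Figure D2:**
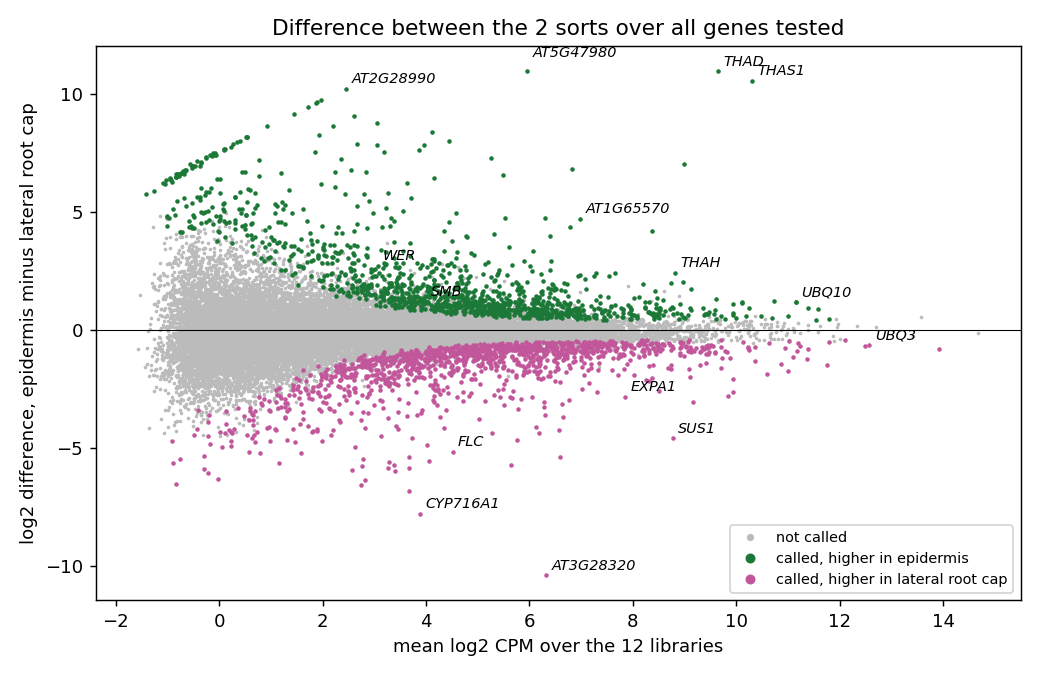
Log2 difference, epidermis minus lateral root cap, against the mean log2 CPM over the 12 libraries for all 21517 genes tested, with called genes in colour and 15 genes named. The largest differences were those of THAD, AT5G47980 and THAS1 at 10.98, 10.97 and 10.57 towards the epidermis and of AT3G28320 at -10.39 towards the lateral root cap, and the straight upper edge at low levels is made of genes with no read in the lateral root cap sort.

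The genes of thalianol synthesis separated the sorts most. Thalianol is a root triterpene, and its genes sit side by side on the chromosome as a metabolic gene cluster. In the RefSeq annotation of TAIR10.1 the 4 genes AT5G47980, THAD, THAH and THAS1 follow each other with 1 further gene between. THAS1 (AT5G48010), the thalianol synthase that cyclises the precursor, stood at 2115 to 2754 CPM in the epidermis libraries, with a median of 2547, and at 0 to 6.47 CPM in the lateral root cap libraries, with a median of 1.401. The log2 difference was 10.57 (SE 1.02, adjusted p = 7.60e-05). THAD (AT5G47990), the cytochrome P450 that desaturates the product, ran from 1253 to 1862 CPM, with a median of 1632, and from 0 to 3.35 CPM, with a median of 0.653. Its difference was 10.98 (SE 0.71, adjusted p = 6.71e-07). AT5G47980, an acyltransferase of the HXXXD family, was at 98.0 to 132 CPM in the epidermis, with a median of 129, and above 0 in 2 of 6 lateral root cap libraries with 4 reads in all, a difference of 10.97 (SE 0.47, adjusted p = 8.71e-12). For each of the 3 genes no library of the sorts overlapped, which the rule for naming the largest differences required.

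THAH (AT5G48000), the cytochrome P450 that hydroxylates thalianol and lies between THAD and THAS1, did not share this near absence. It stood at 579 to 893 CPM in the epidermis, with a median of 763, and at 91.9 to 212 CPM in the lateral root cap, with a median of 127. The groups were apart, by 2.43 log2 units (SE 0.21, adjusted p = 1.68e-07), which is a smaller difference than that of its neighbours. In the cortex, pericycle and stele sorts THAH had medians of 11.9, 1.91 and 4.81 CPM, below the 135 CPM of the lateral root cap on the same scale of 30 libraries. THAS1 had medians of 1.08, 2.69 and 16.4 CPM there and 1.504 CPM in the lateral root cap. Thus, by medians, the lateral root cap sort held THAH above the inner sorts but THAS1 near the level of cortex and pericycle and below that of the stele.

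The marneral pathway makes another root triterpene and showed small differences. MRN1, the marneral synthase, had medians of 499.8 and 405 CPM, ranging from 465 to 899 and from 318 to 562 CPM, with overlap and a difference of 0.41 (SE 0.16, adjusted p = 0.123). CYP71A16, which oxidises marneral products, was higher in every epidermis library, at 203 to 290.4 CPM against 98.6 to 141 CPM, by 1.004 (SE 0.15, adjusted p = 8.77e-05). CYP705A12 overlapped at a difference of 0.50 (SE 0.15, adjusted p = 0.0330), a call that ended without epidermis HPi replicate 1 (0.0777), HPi replicate 2 (0.0835), LPi replicate 1 (0.114) or lateral root cap HPi replicate 1 (0.0581). AT5G47950, an acyltransferase near the thalianol genes, did not pass, at medians of 172 and 131 CPM. Of the 8 triterpene genes 6 were thus higher in the epidermis and 0 in the lateral root cap, beside 5.72% and 5.98% of all genes tested, with a median difference of 1.72 against -0.07. Over summed pairs 5 were called.

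**Figure D3:**
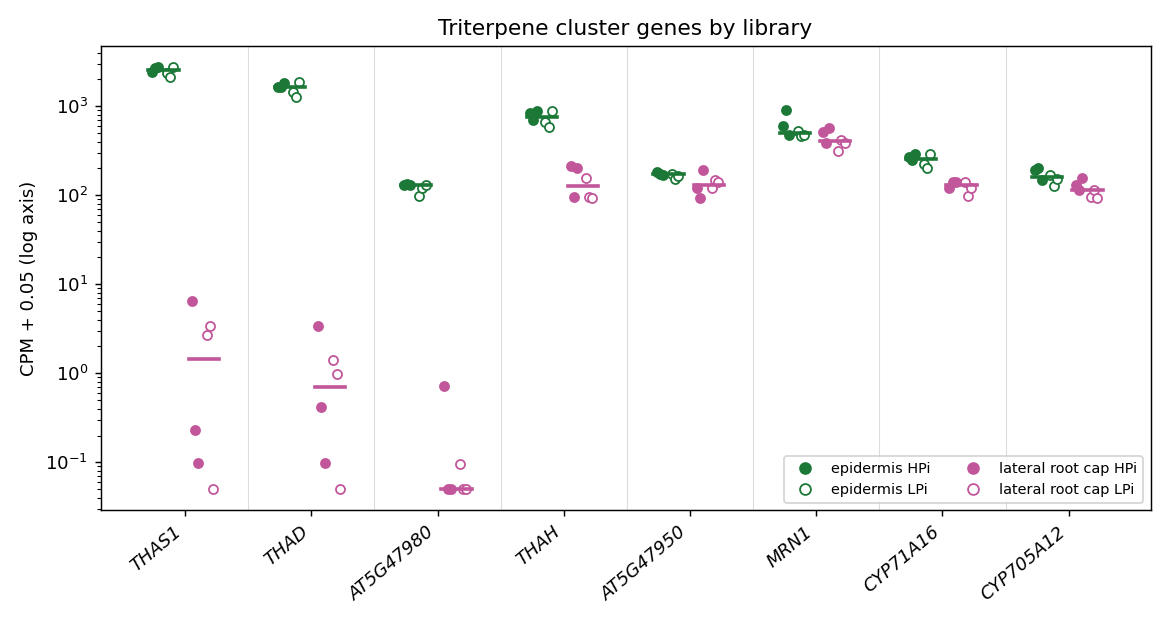
CPM + 0.05 on a log axis for the 8 genes of the thalianol and marneral list, with 1 point per library (filled HPi, open LPi) and a bar at the median of each sort. THAS1, THAD and AT5G47980 lie at or above 98.0 CPM in every epidermis library and at or below 6.47 CPM in every lateral root cap library, while THAH reached 91.9 CPM or more in both sorts.

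The other genes with the largest differences towards the epidermis were of lower level and several encode receptors. AT2G28990, a leucine-rich repeat protein kinase gene, stood at 7.46 to 16.4 CPM in the epidermis, with a median of 9.84, and had no read in the lateral root cap. Against a floor of 3 counts over the 6 lateral root cap libraries it was at least 282-fold higher. AT3G46400, another leucine-rich repeat kinase gene, was at 8.29 to 16.4 CPM against 1 read in all, a ratio of 901 with a 95% counting interval of 161 to 35606. WAKL2, a wall-associated kinase-like receptor gene, was at 11.96 to 19.4 CPM against 2 reads (ratio 593, 164 to 4901). These intervals, exact for counts, cover counting error only, since amplified reads are not independent molecules.

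AT1G72840, of the TIR-NBS-LRR class of intracellular immune receptors, ran from 5.95 to 21.3 CPM against 3 reads in all (ratio 275, interval 93.8 to 1336). It was as high in the stele. With all 30 libraries scaled together its medians were 11.9 CPM in the epidermis, 11.6 in the stele and at most 0.0998 in any other sort. AT5G43040, a C1 domain protein gene, was at 7.16 to 10.6 CPM against 1 read (ratio 683, interval 122 to 27024). AT3G47680, annotated as a DNA binding protein, had medians of 35.5 and 0.106 CPM, and AT1G65985, a DUF247 transmembrane protein gene, 43.4 and 0.134 CPM. All 10 genes named as largest were apart in every library, as the naming rule required. Each was also called at HPi alone and at LPi alone, in fits that reuse the libraries by which it was chosen.

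The largest difference towards the lateral root cap was that of AT3G28320, which RefSeq lists as an uncharacterized protein. It stood at 141 to 185 CPM in the lateral root cap libraries, with a median of 157, and at 0 to 0.204 CPM in the epidermis, with 11 reads in all 6. The log2 difference was -10.39 (SE 0.36, adjusted p = 4.53e-13). AT3G28310, a DUF677 protein gene 2 places away in the annotation, was also higher in the lateral root cap, at 12.04 to 30.4 against 0 to 0.506 CPM and a difference of -5.97 (SE 0.47). CYP716A1, a cytochrome P450 gene of a family known for triterpene oxidation, followed at 10.7 to 46.7 CPM, with a median of 26.5, against 0 to 0.816 CPM, a difference of -7.79 (SE 0.73, adjusted p = 9.41e-07).

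Next came AT5G04245, a noncoding RNA, with medians of 0.144 CPM in the epidermis and 24.8 CPM in the lateral root cap. UBC31, a ubiquitin-conjugating enzyme gene, had medians of 0.116 and 11.9 CPM, and GSTL1, a lambda class glutathione transferase gene, 0.167 and 14.2 CPM. Their differences were -6.83 (SE 0.52), -6.56 (SE 0.57) and -6.38 (SE 0.59). AT2G16050, a C1 domain protein gene, CYP71B22, a cytochrome P450 gene, AT1G66860, a glutamine amidotransferase-like gene, and AT1G51990, an O-methyltransferase gene, completed the 10, with differences from -5.92 to -5.78. In these too, every lateral root cap library was above every epidermis library, as the naming rule required. All 10 were called at each phosphate level alone, again with libraries that had served to choose them.

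Differences among the most abundant transcripts were small beside these. Towards the epidermis, AT1G03220, an aspartyl protease gene, had 3990 ± 808 against 2135 ± 116 CPM (mean ± SD, n = 6 libraries each) and a difference of 0.90 (SE 0.14, adjusted p = 0.000263). UBQ10, a polyubiquitin gene, had 3146 ± 272 against 1391 ± 159 CPM (difference 1.18, SE 0.13). ATMS1, a methionine synthase gene, had 1937 ± 209.7 against 1356 ± 152 CPM, a difference of 0.51 (SE 0.13, adjusted p = 0.0150) whose call ended without epidermis HPi replicate 2 (0.0522) and over summed pairs (0.183).

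Towards the lateral root cap, UBQ3, another polyubiquitin gene, stood at 7383 ± 528 against 4811 ± 1019 CPM in the epidermis, a difference of -0.62 (SE 0.15, adjusted p = 0.00907). The polyubiquitin genes share long near-identical repeats, so how reads were split between UBQ3 and UBQ10 is uncertain. The call of UBQ3 ended without lateral root cap HPi replicate 3 (adjusted p = 0.0594), LPi replicate 1 (0.0696), LPi replicate 2 (0.0542) or LPi replicate 3 (0.0877), and over summed pairs (0.159). AT3G19390, a granulin repeat cysteine protease gene, had 5054 ± 1515 against 1845 ± 425 CPM (difference -1.47, SE 0.18), SAG24, a senescence-associated gene, 3702 ± 648 against 1604 ± 396 CPM, and CYP709B2, a cytochrome P450 gene, 3178 ± 1415 against 940.4 ± 154 CPM. NSP5, a nitrile specifier protein gene that acts in glucosinolate breakdown, had 3378 ± 544 against 1963 ± 489 CPM, a difference of -0.79 (SE 0.17, adjusted p = 0.00289, and 0.0639 over summed pairs).

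Among 6 enzymes that loosen or separate root cap cells, 3 were higher in the epidermis sort. AT1G65570, a pectin lyase-like gene, stood at 119.8 to 411 CPM in the epidermis, with a median of 244, and at 4.33 to 21.1 CPM in the lateral root cap, with a median of 7.07. The difference was 4.73 (SE 0.37, adjusted p = 2.37e-07). The cellulase gene CEL5, known from the root cap, ran from 15.7 to 24.2 CPM against 0 to 2.88 CPM (4.64, SE 0.89, adjusted p = 0.00303). CEL3, a related cellulase gene, ran from 87.9 to 182 against 0.183 to 23.5 CPM (3.34, SE 0.66, adjusted p = 0.00693). It was not particular to the outer sorts. With all 30 libraries scaled together its median was 124 CPM in the epidermis and 104 CPM in the pericycle. CEL5 and AT1G65570 had pericycle medians of 7.39 and 0.340 CPM. All 3 were apart in every library. XTH5 did not pass, at medians of 53.8 and 27.4 CPM, nor did PGAZAT and QRT2, so that 50% of the members were called towards the epidermis, beside 5.72% of all genes tested, with a list median of 2.06.

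Genes of root cap cell death were split. RNS3, a ribonuclease gene of dying cells, had medians of 853 CPM in the epidermis and 1430 CPM in the lateral root cap, with overlap and a difference of -0.82 (SE 0.22, adjusted p = 0.0181). AT4G18425 had medians of 140.3 and 314 CPM, a difference of -1.02 (SE 0.32, adjusted p = 0.0459). SCPL48, a carboxypeptidase gene, went the other way, at 205 to 239 against 76.0 to 165 CPM, by 0.83 (SE 0.18, adjusted p = 0.00472). BFN1, the nuclease gene that degrades nuclei of dying root cap cells, overlapped at 469.7 to 925 and 478 to 1527 CPM and did not pass. Of the 8 members 1 was thus higher in the epidermis (12.5%) and 2 in the lateral root cap (25%), beside 5.72% and 5.98% of all genes tested. Without both nearly identical epidermis libraries 0 were higher in the lateral root cap, and over summed pairs RNS3, AT4G18425 and SCPL48 did not pass (adjusted p = 0.148, 0.134 and 0.0866). The calls of RNS3 and AT4G18425 ended without either of the nearly identical epidermis libraries (RNS3 0.0648 and 0.0826, AT4G18425 0.127 and 0.0755 without HPi and LPi replicate 3) and without lateral root cap HPi replicate 3 (0.169 and 0.174), LPi replicate 1 (0.0513 and 0.1104), LPi replicate 2 (0.0634 and 0.117) or LPi replicate 3 (0.107 and 0.135). That of AT4G18425 also ended without lateral root cap HPi replicate 2 (0.0977) or epidermis HPi replicate 2 (0.106) or LPi replicate 2 (0.1099).

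Of 25 root hair genes tested, which belong to the mature epidermis, 0 were higher in the epidermis sort and 2 (8%) in the lateral root cap, beside 5.72% and 5.98% of all genes tested. RHD6, the basic helix-loop-helix factor that starts hair formation, had medians of 43.2 CPM in the epidermis and 95.1 CPM in the lateral root cap, a difference of -1.13 (SE 0.25, adjusted p = 0.00492). RSL4, which sets hair length, ran from 9.22 to 31.5 CPM against 31.6 to 62.2 CPM, apart in every library, at -1.28 (SE 0.30, adjusted p = 0.00801). The other 23 members tested did not pass, among them LRX1 and MRH6 with medians of 81.5 and 59.5 CPM and of 22.0 and 14.2 CPM. The list median was -0.21. The nearly identical epidermis libraries, HPi and LPi replicate 3, stood apart in this list, both above the other 4 epidermis libraries in 20 of the 25 genes. Summed over the list they held 2107 and 2209 CPM, the other epidermis libraries 905 to 1217 CPM and the lateral root cap libraries 1427 to 2286 CPM. EXPA18, an expansin gene of root hairs, was at 159 CPM in both and at 35.7 to 61.0 CPM in the other 4. Without both libraries 7 members (28%) were higher in the lateral root cap and 0 in the epidermis, beside 5.36% and 6.39% of all genes tested in that fit, with a list median of -0.52. These were RHD6, RSL4, EXPA7, EXPA18, RHD2, PRP1 and RHS19, with differences from -1.85 for RSL4 to -0.76 for RHS19. Over summed pairs RSL4 did not pass (adjusted p = 0.0883). Among 12 regulators of hair and non-hair fate WER, whose promoter served to sort the epidermis cells, was the 1 member called. CPC, which moves into hair cells and blocks the non-hair fate there, had medians of 15.6 and 8.04 CPM with overlap.

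Wall genes of growing cells gave calls in both directions. EXPA1, an expansin gene, stood at 253 to 549.8 CPM in the lateral root cap, with a median of 407, and at 41.7 to 73.6 CPM in the epidermis, with a median of 57.0. This is a difference of -2.83 (SE 0.20, adjusted p = 9.88e-09) without overlap. EXPA17, an expansin gene known from lateral roots, was at 129 to 421 against 67.0 to 117 CPM (-1.38, SE 0.22), and the cellulose synthase-like gene CSLD3 of root hairs was also higher in the lateral root cap (-0.90, SE 0.17). XTH26, a xyloglucan-modifying enzyme gene, differed by -1.29 with overlap. Outside the naming rule, PME3, a pectin methylesterase gene, and CESA6, a cellulose synthase subunit gene, were higher in the epidermis, by 1.58 (SE 0.41) and 0.51 (SE 0.14), and CESA6 did not pass without epidermis HPi replicate 2 (adjusted p = 0.0576). PME3 gave adjusted p = 0.109 without both nearly identical epidermis libraries. Of 21 members tested 2 (9.52%) were higher in the epidermis and 4 (19%) in the lateral root cap, beside 5.72% and 5.98% of all genes tested, and without both of those libraries 2 and 7. Both replicate 3 libraries were above the other epidermis libraries in 12 of the 21.

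ER bodies are vesicles that store root beta-glucosidases for defence. Of 9 genes of these enzymes and of the proteins that form or serve ER bodies, 5 (55.6%) were higher in the epidermis and 0 in the lateral root cap, beside 5.72% and 5.98% of all genes tested, with a list median of 0.58. BGLU22 stood at 2378 ± 410.0 against 1009 ± 169.6 CPM (1.23, SE 0.14, adjusted p = 5.59e-06) and BGLU21 at 832 ± 27.7 against 519.6 ± 84.1 CPM (0.68, SE 0.14). These genes are close paralogs, so the split of reads among them is uncertain. NAI2, needed to form ER bodies, was at 1400 ± 99.5 against 936 ± 90.5 CPM (0.58, SE 0.13), and MEB1, an ER body membrane protein gene, differed by 0.64 (SE 0.14). These 4 were apart in every library. PBP1, a lectin gene that binds PYK10, overlapped and lost its call without epidermis HPi replicate 1 (adjusted p = 0.132), HPi replicate 2 (0.0558), LPi replicate 1 (0.0954) or lateral root cap HPi replicate 1 (0.0875). PYK10, the most studied of these beta-glucosidases, did not pass, with a difference of 0.14. Over summed pairs 1 of the 9 was called, and BGLU21, NAI2 and MEB1 were not (adjusted p = 0.179, 0.181 and 0.122).

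Among 17 immune genes tested 4 (23.5%) were higher in the lateral root cap and 0 in the epidermis, beside 5.98% and 5.72% of all genes tested, with a list median of -0.46. Without both nearly identical epidermis libraries 2 were called, and over summed pairs 0 were. CERK1, the chitin receptor kinase gene, ran from 150 to 165 CPM in the lateral root cap and from 103 to 119 CPM in the epidermis, without overlap, at -0.50 (SE 0.13, adjusted p = 0.0138). BAK1, the co-receptor of FLS2, differed by -0.46 (SE 0.14, adjusted p = 0.0327), also without overlap. PROPEP1, a danger peptide precursor gene, and MYB51, a regulator of indole glucosinolates, differed by -1.53 (SE 0.42) and -0.88 (SE 0.25) with overlap. None of the 4 calls held without each library in turn. The call of BAK1 ended without any of the 12 (adjusted p = 0.0587 to 0.209), that of MYB51 without any but lateral root cap HPi replicate 1 (0.0533 to 0.135). That of CERK1 ended without epidermis HPi replicate 3, LPi replicate 1 or LPi replicate 3 or any lateral root cap library but HPi replicate 1 (0.0624 to 0.124). That of PROPEP1 ended without epidermis HPi replicate 2, LPi replicate 1 or LPi replicate 2, or lateral root cap HPi replicates 1 or 3 or LPi replicates 1 or 2 (0.0521 to 0.0789).

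Among nutrient genes 2 of 19 tested (10.5%) were higher in each sort, beside 5.72% and 5.98% of all genes tested, and without both nearly identical epidermis libraries 0 were higher in the epidermis. COPT2, a copper transporter gene, ran from 2.58 to 13.1 CPM in the epidermis against 0 to 1.96 CPM (3.43, SE 0.83, adjusted p = 0.00922). It gave adjusted p = 0.148 without both nearly identical epidermis libraries and 0.0578 with same-numbered libraries of a sort as a random block (limma voom). FRO2, the ferric reductase gene of iron uptake, was higher in the lateral root cap, at 53.1 to 115 against 22.3 to 47.4 CPM (-1.22, SE 0.22, adjusted p = 0.000884). The nitrate transporter gene NRT1.1 differed by 0.51 (SE 0.15, adjusted p = 0.0347) and the sulfate transporter gene SULTR1;2 by -0.52 (SE 0.14, adjusted p = 0.0148). The call of NRT1.1 ended without epidermis LPi replicate 1 (0.0624) or lateral root cap HPi replicate 1 (0.0519) or LPi replicate 3 (0.0512). That of SULTR1;2 ended without epidermis HPi replicate 3 (0.0894) or LPi replicate 3 (0.0508), or lateral root cap HPi replicate 2 (0.0731), HPi replicate 3 (0.0837), LPi replicate 1 (0.126) or LPi replicate 3 (0.112). Of the iron deficiency regulators 1 of 9 (11.1%) was called, a share near the 11.7% of all genes tested. It was F6'H1, which makes coumarins that mobilise iron, at -0.67 (SE 0.18, adjusted p = 0.0163). Its call ended without epidermis HPi replicate 2 (0.0504) or lateral root cap HPi replicate 3 (0.105), LPi replicate 1 (0.0940), LPi replicate 2 (0.0591) or LPi replicate 3 (0.0842). Over summed pairs NRT1.1, SULTR1;2 and F6'H1 did not pass (adjusted p = 0.327, 0.119 and 0.178). FIT, AT2G30766 and MYB10 did not pass in the fit of all 12 libraries, with highest levels of 27.3, 2.85 and 4.52 CPM.

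Auxin carriers, protoderm genes and the cell cycle were called for few members. AUX1, the auxin influx carrier gene of epidermis and lateral root cap, had medians of 164 and 80.7 CPM, a difference of 0.88 (SE 0.26, adjusted p = 0.0340), and the efflux transporter gene ABCB1 differed by 0.64 (SE 0.18, adjusted p = 0.0218). Both overlapped and lost their calls without epidermis HPi replicate 2 (adjusted p = 0.105 and 0.0694), LPi replicate 1 (0.0952 and 0.0607) or lateral root cap HPi replicate 1 (0.0693 and 0.0503). The AUX1 call also ended without epidermis HPi replicate 1 (0.0680), LPi replicate 2 (0.0687) or lateral root cap LPi replicate 3 (0.0541). Of 13 carriers tested 2 (15.4%) were called, beside 11.7% of all genes tested, and ABCB19 and ABCB21 were not. Over summed pairs AUX1 and ABCB1 did not pass (adjusted p = 0.210 and 0.172).

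Among 12 protoderm and cuticle genes tested GPAT8 (1.09, SE 0.28) and the fatty acid elongation gene CER10 (0.91, SE 0.28) were higher in the epidermis with overlap, while LTPG1 and ATML1, the protoderm homeobox gene, did not pass. The GPAT8 call ended without epidermis LPi replicate 1 (adjusted p = 0.0517). That of CER10 ended without any of epidermis HPi replicates 1 and 2 (0.125 and 0.0669), LPi replicates 1 and 2 (0.103 and 0.0694) and lateral root cap LPi replicates 1 and 2 (0.0556 and 0.0526). Of 24 cell cycle genes tested the mitotic cyclin genes CYCB1;2 (4.37, SE 1.07) and CYCA2;3 (1.90, SE 0.54) were higher in the epidermis and HTA2, a histone gene, in the lateral root cap (-2.01, SE 0.27, adjusted p = 4.10e-05). Both cyclin genes were low, with epidermis medians of 2.31 and 11.1 CPM, and overlapped, and CYCB1;2 gave adjusted p = 0.114 with that random block (limma voom). The CYCA2;3 call ended without epidermis HPi replicate 2 (0.0708), LPi replicate 1 (0.0637) or lateral root cap HPi replicate 1 (0.0570). PLT2, a meristem regulator, was at 1.01 to 12.8 CPM in the epidermis and at 0 to 1.13 CPM in the lateral root cap (5.13, SE 1.16, adjusted p = 0.00552). MCM7, a replication gene, did not pass. The median difference of the cell cycle list was 0.98, with 17 of the 24 members above 0, beside a median of -0.07 over all genes tested. Both epidermis replicate 3 libraries were below the other epidermis libraries in 12 of the 24, beside 16.1% of all genes tested. Without both libraries the list median was 1.38. Called members made up 16.7% of the protoderm list and 12.5% of the cell cycle list, beside 11.7% of all genes tested, and over summed pairs GPAT8, CER10 and CYCA2;3 did not pass (adjusted p = 0.101, 0.104 and 0.0844). None of the 9 columella and gravity genes tested passed, among them PIN7, AT1G72490, ADG1 and ARG1.

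Of 15 genes of wounding, heat and the isolation of cells 3 (20%) were higher in each sort, beside 5.72% and 5.98% of all genes tested, and 9 were not called. Both epidermis replicate 3 libraries were above the other epidermis libraries in 9 of the 15. Without them the list median went from 0.20 to -0.25, with 3 called in each direction as before. WRKY40 and ZAT12, transcription factors of the early stress response, were higher in every epidermis library, at 253 ± 46.5 against 127 ± 12.5 CPM (0.99, SE 0.15) and 327 ± 77.2 against 166 ± 22.1 CPM (0.98, SE 0.16). The jasmonate repressor JAZ7, outside the naming rule, was at 29.7 ± 14.1 against 7.73 ± 3.90 CPM (1.92, SE 0.38). ERF1, an ethylene response factor gene, was higher in every lateral root cap library, at 8.09 to 16.1 against 0.166 to 1.84 CPM (-4.17, SE 0.50, adjusted p = 9.97e-06). It was not particular to that sort. With all 30 libraries scaled together its medians were 14.0 CPM in the lateral root cap, 11.5 in the cortex, 14.1 in the pericycle and 0.989 in the stele. TCH3, a touch-induced calmodulin-like gene, was also higher in the lateral root cap than in the epidermis (-1.32, SE 0.17). LOX3, a lipoxygenase gene of jasmonate synthesis, differed by -1.102 with overlap, a call that ended without epidermis HPi replicates 1 or 3 or LPi replicate 2, or lateral root cap HPi replicate 2 or any LPi replicate (adjusted p = 0.0569 to 0.158). The heat shock genes tested did not pass. Over summed pairs ZAT12 did not pass (adjusted p = 0.0599). Whether handling of the sorts had a part in these differences was not tested.

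**Figure D4:**
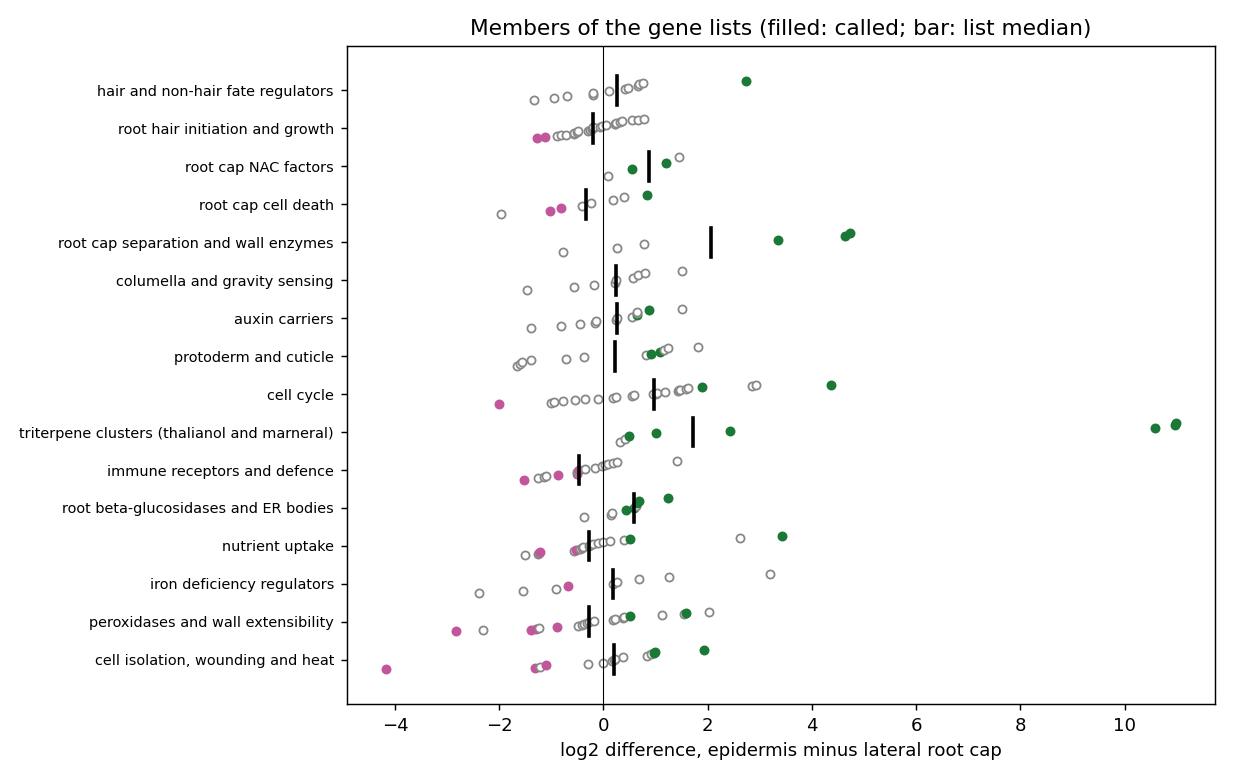
Log2 difference, epidermis minus lateral root cap, of each tested member of the 16 gene lists, filled where the gene was called (green higher in the epidermis, pink higher in the lateral root cap), with a bar at the list median. The list medians run from -0.46 for immune genes to 2.06 for root cap separation enzymes.

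Because each sort came from its own line, the genes that differed most were looked up in the other 18 libraries. This step was chosen after the values were seen and is a description without a test. Of the genes that met the conditions for naming, 87 differed by a log2 value of at least 4. For each, the median level in the stele (SHR::GFP), cortex (J0571) and pericycle (J0661) sorts was placed nearer to that of the epidermis or of the lateral root cap on the log2 scale. Of the 53 genes higher in the epidermis, 22 were near the lateral root cap level in all 3 other sorts. The thalianol genes THAS1, THAD and AT5G47980, WAKL2, AT5G43040 and AT2G28990 were among them. Another 22 were near the epidermis level in the stele and near the lateral root cap level in the cortex and pericycle sorts. An example is AT5G49440, with medians of 240.2 CPM in the epidermis, 283 in the stele, 1.93 in the lateral root cap, 2.38 in the cortex and 0.728 in the pericycle.

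Most of the 34 genes higher in the lateral root cap fell in the same 2 main patterns. Of the rest, 5 genes, among them AT3G28320, were nearer to the lateral root cap in the cortex sort alone. In 12 genes, including CYP716A1 and UBC31, the 3 other sorts were all near the epidermis level, and CYP716A1 had a median of 26.8 CPM in the lateral root cap and at most 0.121 CPM in any other sort. In 14 genes the cortex and pericycle sorts were near the lateral root cap and the stele near the epidermis. ERF1, GSTL1 and AT5G04245 were among them. FLC, a repressor of flowering, was of this kind, with medians of 44.9 CPM in the lateral root cap, 65.8 in the cortex, 53.9 in the pericycle, 1.38 in the epidermis and 0.381 in the stele. In the comparison itself FLC ran from 34.3 to 53.8 against 0.369 to 2.34 CPM (-5.16, SE 0.34, adjusted p = 5.44e-09). SUS1, a sucrose synthase gene, ran from 695 to 1060 against 27.2 to 51.3 CPM (-4.57, SE 0.19, adjusted p = 5.70e-12), with cortex, pericycle and stele medians of 569, 980 and 109.9 CPM. FLC, SUS1 and AT5G49440 were chosen after their values were seen. The epidermis and stele sorts came from promoter::GFP lines and the other 3 from J lines, an enhancer trap collection raised in the accession C24, and the labels name no accession for any line. For these genes cell type, line and accession cannot be told apart.

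**Figure D5:**
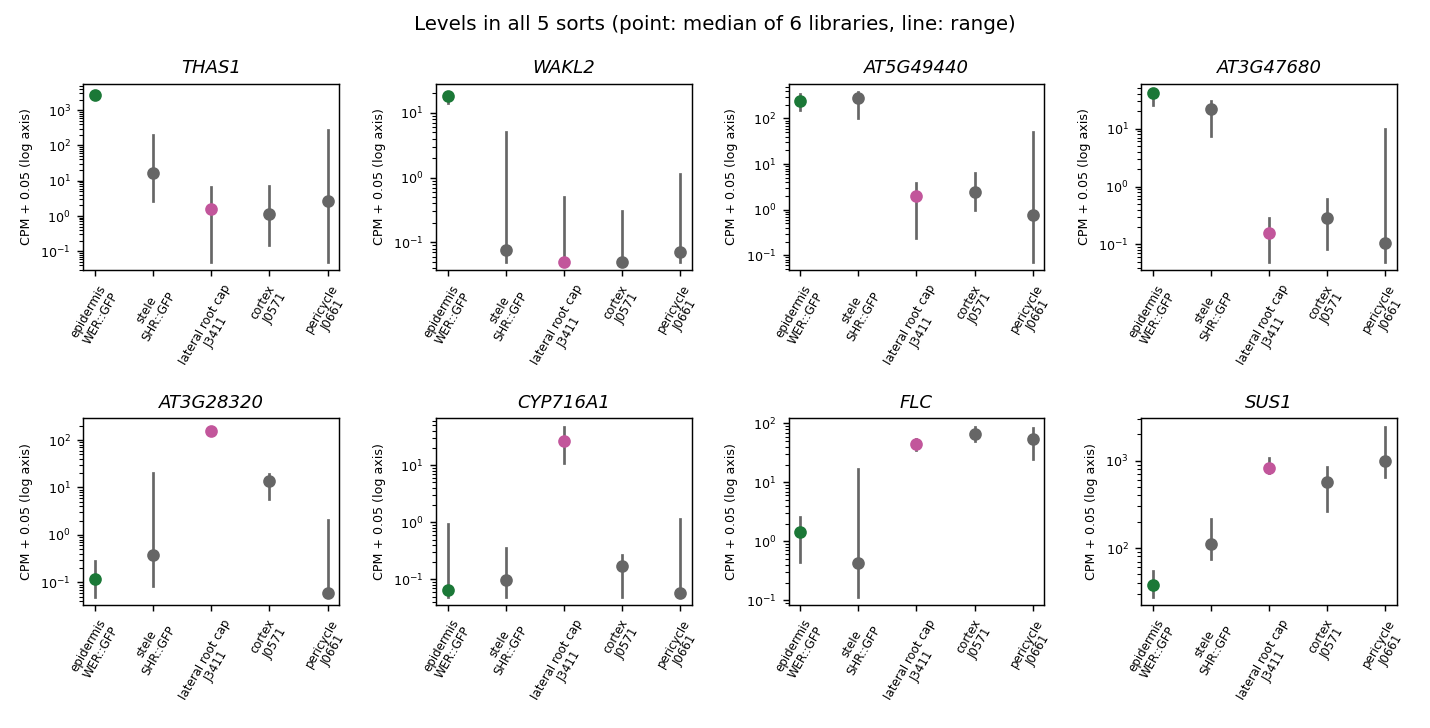
CPM + 0.05 on a log axis for 8 genes in all 5 sorts, with a point at the median of 6 libraries and a line over their range, promoter::GFP lines on the left and J lines on the right of each panel. THAS1 and WAKL2 were highest in the epidermis and CYP716A1 in the lateral root cap, whereas FLC and SUS1 were higher in all 3 J lines than in the epidermis and AT5G49440 and AT3G47680 were high in both promoter::GFP lines.

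Whether the response to low phosphate differed between the sorts was tested as an interaction. It was called for 0 of 21517 genes (0%) by edgeR, with 648 at an unadjusted p under 0.05, 2 by DESeq2 and 0 by limma voom. The phosphate level as a covariate was itself called for 0 genes, with 471 at an unadjusted p under 0.05. The replicate 3 libraries of the epidermis were almost the same at HPi and LPi, so 1 of 3 epidermis libraries at each level held almost no difference between the levels, which limits what a count of 0 shows.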

How the data were processed

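The authors deposited raw read counts, 1 whole number per gene and library, and these were analysed as they stand. The submitters' processing notes name CASAVA 1.4, FastQC 0.11.9, MultiQC 1.7, STAR 2.5.3a, HTSeq 1.99.2 and DESeq2, with genome build, annotation and use of strand not given in the sources used here, so antisense and overlapping genes could not be separated. Libraries were made with SMART-Seq v4, which amplifies cDNA, and carry no molecular identifiers in the table. The 5 lines of unassigned reads were left out, at 6.44% to 12.5% of a library. Names came from RefSeq (TAIR10.1) for 32548 of 32833 identifiers.

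The filter filterByExpr of edgeR 4.0.16 (R 4.3.3) kept 21517 genes, which were scaled by TMM and fitted as phosphate level plus cell type over the 12 libraries (9 residual degrees of freedom, common BCV 0.682). The robust quasi-likelihood F test is 2-sided, and calls were made at a Benjamini-Hochberg adjusted p under 0.05. The standard error is the size of the log2 difference divided by the square root of F. CPM values are TMM-scaled, and the floor of a gene without reads was 3 counts over a sort.

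Up to 10 genes per direction were named by the largest difference among calls with mean log2 CPM of at least 2, no overlap and a call without either epidermis replicate 3 library. The 5 most abundant per direction under the same conditions, up to 4 members per list with the smallest p, and WER and SMB were added. Same-numbered HPi and LPi libraries correlated in their deviations from group means at 0.206 to 0.369 in the epidermis, which pairs them by the data alone, and at 0.00177 to 0.117 in the lateral root cap, which does not. The model takes 6 libraries per sort as independent, so calls lost over summed pairs are given beside the genes. Members and lists (16 lists, 11 marker lists) were chosen with earlier results of these data known, and list members come from general knowledge. No genome sequence is shown, because the build of the counts is not given. Alternatives were RLE scaling, other filters, DESeq2 1.42.0, limma 3.58.1 voom, the replicate number as a block, summed pairs, all 30 libraries, no covariate, each phosphate level alone, a minimum log2 difference of 1, no organelle genes and each library left out. The workflow was tested on simulated data.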

Additional observations from a re-analysis of the deposited data

Results flagged for a closer look

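For the genes named by the rule, 159 groups of 6 libraries were examined for a library far from the rest of its sort, and 8 were found, where chance gives about 1 in 20. In the lateral root cap, HPi replicate 3 stood at 8032 CPM of AT3G19390 against 3904 to 5062 in the other libraries, and at 54.6 CPM of HTA2 against 25.8 to 31.4. HPi replicate 2 held 0.487 CPM of ATML1 against 3.57 to 7.18, and 0.183 CPM of CEL3 against 10.4 to 23.5. HPi replicate 1 held 4.01 CPM of UBC31 against 11.7 to 20.3. In the epidermis, LPi replicate 2 stood at 121 CPM of BAK1 against 155 to 178 and at 2621 CPM of UBQ10 against 3118 to 3391, and LPi replicate 1 at 98.0 CPM of AT5G47980 against 121 to 132. AT3G19390, HTA2, CEL3, UBC31, UBQ10 and AT5G47980 remained called without the library in question, and BAK1 did not (adjusted p = 0.0819 without epidermis LPi replicate 2). No gene differed between the sorts in its phosphate response by edgeR's test.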

How the results depend on the processing

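The 2517 calls (1230 higher in the epidermis, 1287 higher in the lateral root cap) became 493 (290 and 203) at HPi alone, 798 (378 and 420) at LPi alone, 1672 (552 higher in the lateral root cap) with all 30 libraries, 510 (278 and 232) with a minimum log2 difference of 1 and 1000 (494 and 506) with same-numbered HPi and LPi libraries summed, settings with fewer libraries, a stricter rule or another spread. DESeq2 called 1955 genes higher in the epidermis, and 2 genes for the difference in phosphate response, which edgeR called for 0. Leaving out each library gave 1852 to 2429 calls, 936 to 1461 higher in the epidermis and 773 to 1088 higher in the lateral root cap, and 0 to 0 for the phosphate response. With the replicate number as a block 2857 genes were called and with the block as a random effect 2117. Same-numbered libraries of the 2 sorts correlated at -0.0767 to 0.255 in their deviations from group means, which does not pair the sorts. The random block ended the calls of AUX1 (adjusted p = 0.169), BRN1 (0.0528), COPT2 (0.0578), CYCA2;3 (0.0952), CYCB1;2 (0.114) and PROPEP1 (0.105), and the number as a block those of AT4G18425 (0.0595) and AUX1 (0.0627). RLE scaling gave 2566 calls, of which 2431 were also called by TMM in the same direction. Of 96 named genes called, 43 were called in every setting and none reversed. Among 2590 values 320 were no longer called, 47 with the minimum difference, 42 at HPi alone, 37 with all 30 libraries, 32 at LPi alone and 30 over summed pairs. The cause of these losses was not tested. Without both nearly identical epidermis libraries 2677 genes were called (54.4% higher in the epidermis). The share of calls higher in the epidermis, 48.9%, was 59.8% and 61.4% without epidermis HPi or LPi replicate 3, 60.1% without lateral root cap HPi replicate 2 and 61.3% without LPi replicate 2. Depth limits low genes, since 3 counts correspond to 0.0819 to 0.669 CPM in a library.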

Other observations

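Some protein families, named by the product in RefSeq and chosen after values were seen, held more calls in one direction than the 5.72% (epidermis) and 5.98% (lateral root cap) of all genes tested. These are counts without a test. Of 120 C1 domain protein genes 27 (22.5%) were higher in the epidermis and 5 (4.17%) in the lateral root cap, with a median difference of 0.51. AT4G01910 had medians of 11.5 and 0.297 CPM, and AT2G02680 of 7.11 and 0 CPM, while AT2G44370 went the other way, at 4.89 to 12.01 CPM in the epidermis and 72.8 to 123 CPM in the lateral root cap (-3.33, SE 0.22, adjusted p = 5.49e-09, edgeR). C1 domain genes form tandem groups of close copies, so reads could be split among them.

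Of 40 glutathione transferase genes, which conjugate toxic compounds to glutathione, 10 (25.0%) were higher in the lateral root cap and 4 (10%) in the epidermis. GSTU24 stood at 1300 to 2034 CPM in the lateral root cap and at 161 to 388 CPM in the epidermis (-2.64, SE 0.21, adjusted p = 4.43e-08), and GSTU11 at 58.2 to 90.6 against 6.63 to 19.4 CPM (-2.54, SE 0.28). GSTU2 went the other way, at 37.0 to 58.0 CPM in the epidermis against 3.35 to 12.2 CPM (2.73, SE 0.27). All 3 were apart in every library. High levels of GSTU24 and GSTU11 were not particular to the lateral root cap sort. With all 30 libraries scaled together GSTU24 had medians of 1793 CPM in the lateral root cap, 1780 in the cortex, 1529 in the pericycle and 408 in the stele. GSTU11 had 65.0, 891, 46.5 and 20.4 CPM in the same order, and GSTU2 6.52, 7.66, 9.22 and 24.0 CPM.

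Genes of the TIR-NBS-LRR immune receptors were called in both directions, 8 and 7 of 85. SNC1, an immune receptor gene of this class, was at 12.4 to 29.1 CPM in the lateral root cap and 0.166 to 2.43 CPM in the epidermis (-3.74, SE 0.49), and AT3G44400 at 27.5 to 56.9 CPM in the epidermis and 3.54 to 11.7 CPM in the lateral root cap (2.55, SE 0.28). On the scale of 30 libraries SNC1 had medians of 16.1 CPM in the lateral root cap, 24.0 in the cortex, 29.5 in the pericycle and 4.77 in the stele. Ribosomal protein genes were seldom called, with 8 and 3 of 309 (2.59% and 0.971%), although their median difference was 0.63 towards the epidermis.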
